A study of Mus musculus with 4 samples.

Results

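The endoplasmic reticulum (ER) folds secreted and membrane proteins, and the genes that sense, signal and relieve a load of misfolded protein in it were followed in cultured mouse hair follicle stem cells (HFSCs). The genes were 35 of the 24346 gene symbols listed for each library, taken by name from a list of sensors, transcription factors, ER chaperones, disulfide isomerases, ER-associated degradation (ERAD) genes and ATF4 targets. All 35 symbols were found. RNA of HFSCs from C3H/HeN mice was sequenced after 10 passages (10p-HFSCs) and after 48 passages (48p-HFSCs), with 2 libraries in each group. All cells began as sorted skin epithelial cells that carried CD49f and CD34 on their surface, and were kept in the same serum-free medium (M-CnT) in both groups. Nothing in the sources states that the 2 libraries of a group came from separate animals or separate lines of culture, so the p-values below measure the spread between these libraries only, which may be technical.

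Misfolded protein in the ER is sensed by the membrane proteins IRE1 (Ern1), PERK (Eif2ak3) and ATF6 (Atf6). IRE1 splices the mRNA of the transcription factor XBP1, PERK phosphorylates the initiation factor eIF2alpha and so favours translation of ATF4, and ATF6 is cut in the Golgi to free its own transcription factor domain. These factors raise transcription of chaperones, disulfide isomerases and ERAD genes, and ATF4 with its partner CHOP (Ddit3) also acts on amino acid supply, on redox balance and on cell death. Splicing, phosphorylation and cleavage are not read by a level of mRNA per gene. Keratinocytes use this response in stress and also in normal differentiation.

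Several of these genes carry known response elements in their promoters, and 8 are shown because their genes stand at the centre of the values below or carry the same element with another value. Motifs were searched by script on both strands of promoter windows from RefSeq (GRCm38.p6), each reaching from 250 bases before to 50 bases after a gene's start, and 30 of the 35 genes had a window. Atf6, Ppp1r15b, Hyou1, Manf and Derl1 had none. In the windows printed here the capitals mark an ER stress response element (ERSE, CCAAT, then 9 free bases, then CCACG), the shorter ERSE-II (ATTGG, 1 free base, CCACG) or the core of an ATF4 site (TGATGNAA). Each is read along the gene's own strand, so that a motif on the other strand appears as its reverse complement.
Herpud1, chr8:94386297-94386407, plus strand, ATF4 site core and then ERSE-II: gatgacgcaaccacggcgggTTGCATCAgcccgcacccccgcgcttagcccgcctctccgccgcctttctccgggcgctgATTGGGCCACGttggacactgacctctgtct
Hspa5, chr2:34772005-34772063, plus strand, ERSE: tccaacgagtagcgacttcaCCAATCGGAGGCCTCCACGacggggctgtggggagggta
Calr, chr8:84847055-84847113, minus strand, ERSE: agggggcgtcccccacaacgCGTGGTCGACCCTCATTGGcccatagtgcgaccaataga
Creld2, chr15:88819500-88819558, plus strand, ERSE: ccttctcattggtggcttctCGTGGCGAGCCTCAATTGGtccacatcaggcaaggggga
Pdia6, chr12:17266471-17266529, plus strand, ERSE: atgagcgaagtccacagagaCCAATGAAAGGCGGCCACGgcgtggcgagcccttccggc
Canx, chr11:50325780-50325838, minus strand, ERSE: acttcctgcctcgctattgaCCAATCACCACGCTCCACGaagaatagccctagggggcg
Dnajc3, chr14:118937807-118937865, plus strand, ERSE: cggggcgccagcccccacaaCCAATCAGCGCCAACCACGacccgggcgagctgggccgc
Chac1, chr2:119351029-119351076, plus strand, ATF4 site core: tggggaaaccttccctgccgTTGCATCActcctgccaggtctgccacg

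An ERSE was found in 9 of the 30 genes with a window (30%), against 0.119% of all 32851 promoter windows of the same length. Besides the 6 printed, these were Hsp90b1, Syvn1 and Derl3. ERSE-II was found in Herpud1 and Dnajb11, 6.67% of the genes against 0.0365% of all windows. The ATF4 site core was found in Asns, Chac1, Herpud1 and Trib3, 13.3% against 3.97% of all windows. The core of the unfolded protein response element (UPRE, TGACGTG) was found in Hspa5 alone of these genes (3.33% against 2.01%), and no match in these genes overlapped another motif. Herpud1 was thus the only gene of the list with an ERSE-II and an ATF4 site core in the same window, 52 and 112 bases before its start. A match of letters is a description of the sequence and not a measured binding site. The genes were taken by name as genes of this response, so a larger share of its known elements is no independent result.

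The deposited values are FPKM, fragment numbers set relative to the length of the exons and to the depth of the library, so that levels of different genes can be set side by side per length. Differences are given on the log2(FPKM + 1) scale as 48p-HFSCs minus 10p-HFSCs, and they understate the change of genes with low FPKM. A gene was called higher or lower where the limma adjusted p-value was under 0.05 and the log2 difference was at least 1. The 4 libraries summed to between 581516 and 1414953 FPKM, with the highest sum in replicate 2 of 48p-HFSCs, whose relative depth was also the lowest (46.7% of that of replicate 1 of 10p-HFSCs). Replicates lay at least 2-fold apart in 1.37% of the 11018 genes tested in 10p-HFSCs and in 17.0% in 48p-HFSCs. Of the hair follicle markers, Krt5 and Krt14 were at 1217 FPKM or more in every library. Cd34 (at most 0.23) and Lhx2 (at most 0.02) were near 0 in all 4, although the cells had been sorted for CD34 protein at the start. The paper reports that most cells stained for CD34 protein at both passages. By qRT-PCR over the passages it examined, the paper reports Cd34 and Krt15 mRNA as maintained. It reports Lhx2 and Sox9 mRNA as significantly increased in 48p-HFSCs. Why the FPKM values differ from the qRT-PCR was not tested. The 10 keratinocyte markers together summed to 3654 and 3001 FPKM in 10p-HFSCs and to 12928 and 7940 in 48p-HFSCs, a sum carried mostly by Krt5 and Krt14. Of the others, Itga6 was called higher, from 31.4 and 20.8 to 101 and 79.0 (log2 difference 1.77, limma adjusted p = 0.014). Itgb4 was also called higher, from 59.3 and 46.4 to 105 and 109 (1.01, limma adjusted p = 0.049). Sox9 was called lower, against the direction of that qRT-PCR, from 45.6 and 44.2 to 20.2 and 8.31 (-1.71, limma adjusted p = 0.039). Krt15, at 136 and 82.6 and then at 425 and 18.8, was not called. Of 8 fibroblast markers, Col1a2 stood at 67.6 and 59.3 in 10p-HFSCs and was listed at 0 in 48p-HFSCs, Twist2 was at 0.044 and 0.062 and then at 3.35 and 0.849, and Dcn, Lum and Thy1 were listed at 0 in every library. The melanocyte, endothelial, leukocyte and plasma cell markers each summed to at most 18.3 FPKM in any library. In bulk RNA a smaller share of cells of a type and less RNA per cell cannot be told apart, and the part of these marker shifts in the results below was not tested.

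Of the 35 genes, 34 passed the filter on low values (at least 2 libraries with an FPKM of 1 or more), and 2 of the 34 were called between the groups. Derl1 was called higher and Herpud1 was called lower. Over all genes tested, 10.8% were called higher, 9.15% lower and 19.9% in either direction, so the list held a smaller share of called genes than the whole table did. Both are ERAD genes, and they stood at similar levels in 10p-HFSCs and apart in 48p-HFSCs. The median log2 difference of the 34 genes was 0.24, beside -0.03 over all genes tested. The calls rest on 2 libraries in each group. A fit with a library left out leaves a single library in a group, and the calls over all genes tested moved with it. They were more without replicate 1 of 48p-HFSCs, fewer without replicate 2, and far fewer without either library of 10p-HFSCs. Derl1 and Herpud1 lost their calls without either library of 10p-HFSCs, and Derl1 also without replicate 2 of 48p-HFSCs. An unadjusted p-value under 0.05 (limma) was found for 6 genes in the upward and 2 in the downward direction, against 18.5% and 18.9% of all genes tested. The values of 48p-HFSCs were both higher than those of 10p-HFSCs for 15 of the 34 genes, against 31.7% of all genes tested, and both lower for 5, against 34.3%. In the other 14 genes the groups overlapped.

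**Figure D1:**
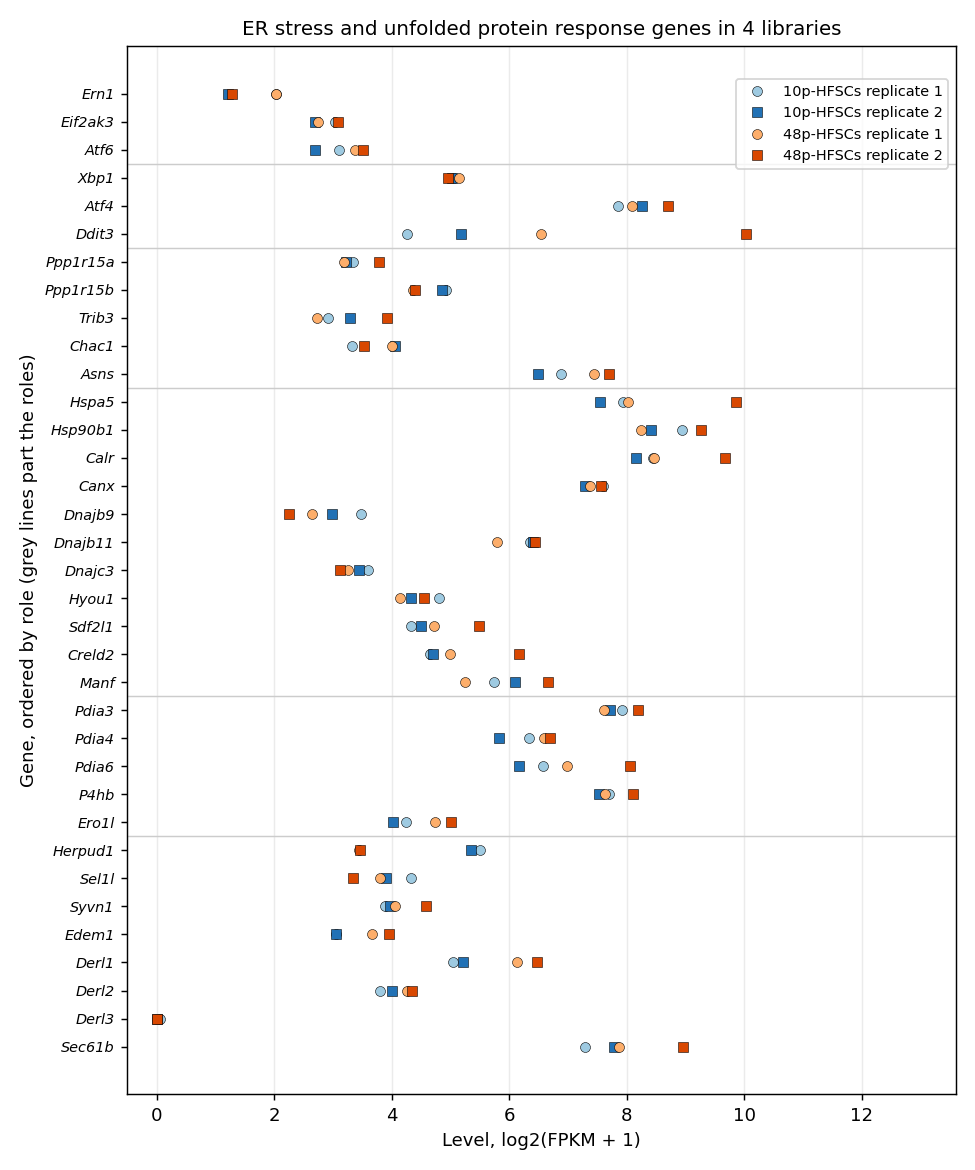
Level of each of the 35 genes in each library on the log2(FPKM + 1) scale, with the genes ordered by role. Blue points are the 10p-HFSC and orange points the 48p-HFSC libraries, with circles for replicate 1 and squares for replicate 2. Herpud1 lies apart to the left in 48p-HFSCs and Derl1 to the right, Ddit3 spans from 18.3 to 1043 FPKM, and Derl3 sits at 0.

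ERAD genes carry misfolded protein out of the ER for destruction by the proteasome, and they held both calls. Of the 7 ERAD and translocon genes tested, 1 was called higher and 1 lower, beside 10.8% and 9.15% of all genes tested. With so few genes, these calls do not set the group apart. Herpud1, the ER membrane protein HERP that organises the ERAD complex and is among the most stress-responsive ERAD genes, had FPKM values of 44.3 and 39.6 in 10p-HFSCs, against 9.93 and 9.97 in 48p-HFSCs. The groups did not overlap, and the 48p-HFSC replicates were nearly equal. The means fell 4.21-fold, from 41.9 ± 3.35 (SD, n = 2) to 9.95 ± 0.031 (SD, n = 2), which is -1.97 as a log2 difference (limma, adjusted p = 0.0044 with a standard error of 0.24). Herpud1 lies on chromosome 8 of GRCm38 from 94386438 to 94395377, and the 585 genes tested on that chromosome had a median log2 difference of -0.61. Calr, the other of these genes on chromosome 8, had a difference of 0.76. The call of Herpud1 was lost where either 10p-HFSC library was left out, which leaves a single library in that group, with differences of -1.89 and -2.05. Far fewer genes of the whole table were called in those fits.

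Derl1, a subunit of the channel through which misfolded protein leaves the ER, was at 31.8 and 36.2 in 10p-HFSCs, against 69.1 and 87.8 in 48p-HFSCs. Both 48p-HFSC libraries were above both others, by more than the spread of either group. The means were 34.0 ± 3.09 (SD, n = 2) and 78.5 ± 13.2 (SD, n = 2), which is 1.18 as a log2 difference (limma, adjusted p = 0.030 with a standard error of 0.26). Derl1 lies on chromosome 15 from 57869502 to 57892448, where the 428 genes tested had a median difference of 0.27. Its call was lost under TPM rescaling, which sets the sums of all libraries equal (log2 difference 0.60, limma adjusted p = 0.35), a scaling that moved the median of all genes from -0.03 to -0.56, and with that shift taken out the difference was 1.13. The call was also lost without either 10p-HFSC library, where far fewer genes of the whole table were called, and, narrowly, without replicate 2 of 48p-HFSCs.

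The other ERAD genes were not called. Edem1, a lectin that takes mannose-trimmed glycoproteins out of the folding cycle, was at 7.32 and 7.30 in 10p-HFSCs, against 11.6 and 14.4 in 48p-HFSCs (log2 difference 0.75, standard error 0.27, limma adjusted p = 0.10). Its groups were apart and its replicates close. Derl2, a paralogue of Derl1, was at 12.9 and 15.1 and then at 18.1 and 19.4, also without overlap (0.40, limma adjusted p = 0.29). Sel1l and Syvn1 encode the partners of the main ubiquitin ligase complex of ERAD, the adaptor SEL1L and the ligase HRD1. Sel1l was at 19.2 and 14.0 in 10p-HFSCs, against 12.9 and 9.12 in 48p-HFSCs, and Syvn1 at 13.8 and 14.6 against 15.5 and 23.1. Their log2 differences, -0.55 and 0.39, thus had opposite signs, with standard errors of 0.31 and 0.29 and neither called. Sec61b, the beta subunit of the translocon through which proteins enter the ER, was at 156 and 220 in 10p-HFSCs, against 234 and 499 in 48p-HFSCs (0.88, standard error 0.48, limma adjusted p = 0.23). Derl3, the paralogue typical of secretory tissues, was at 0.043 in replicate 1 of 10p-HFSCs and listed at 0 in the other 3 libraries, and was not tested.

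None of the 3 sensors was called, and none had an unadjusted p-value under 0.05 (limma), although an absent call in 2 against 2 libraries does not show equal levels. Ern1 was at 3.10 and 1.32 in 10p-HFSCs, against 3.09 and 1.44 in 48p-HFSCs. Replicate 1 was the higher library in both groups, and the replicates lay farther apart than the group means did (log2 difference 0.04, standard error 0.40). Eif2ak3 was at 7.18 and 5.44 and then at 5.67 and 7.46, with overlapping groups (0.05, standard error 0.30). Atf6 was at 7.58 and 5.45 in 10p-HFSCs, against 9.39 and 10.4 in 48p-HFSCs, without overlap (0.55, standard error 0.29, limma adjusted p = 0.22). Per length, the mRNAs of the sensors were among the least abundant of the list in both groups, with means from 2.21 to 9.88 FPKM.

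The transcription factors differed widely in level and in spread. Xbp1 was at 32.4 and 31.5 in 10p-HFSCs, against 34.4 and 30.0 in 48p-HFSCs, a log2 difference of 0.01 with a standard error of 0.24. Values per gene do not separate its spliced from its unspliced form. Atf4 was at 230 and 304 in 10p-HFSCs, against 272 and 419 in 48p-HFSCs, with overlapping groups (0.35, standard error 0.40, limma adjusted p = 0.56).

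Ddit3, which encodes the proapoptotic factor CHOP, was at 18.3 and 35.4 in 10p-HFSCs, against 92.2 and 1043 in 48p-HFSCs. The 48p-HFSC values were the higher ones, but they lay 11.3-fold apart from each other. The log2 difference of 3.56 was the largest of the list, and its standard error of 1.08 was also the largest, and it was not called (limma adjusted p = 0.069). Only 0.0545% of all genes tested had a larger excess of replicate 2 over replicate 1 in 48p-HFSCs, and 0.0547% had after each library was corrected for transcript length and GC content, where the excess was 2.89 on the log2 scale in place of 3.49. Ddit3 was called higher in 5 of the 14 settings run. Among them were TPM rescaling (log2 difference 2.99, limma adjusted p = 0.0032) and quantile normalization (3.24, limma adjusted p = 0.040). The fit without replicate 1 of 48p-HFSCs was another, with a difference of 5.30 that rests on replicate 2 alone. Without replicate 2 of 48p-HFSCs the difference was 1.81. An exon of Mars, the methionyl-tRNA synthetase gene on the opposite strand, shares 68 bases with Ddit3. The paper names a stranded library kit, but the strand setting of the authors' quantification is not given in the sources used here. Mars was at 43.6 and 44.1 in 10p-HFSCs, against 72.3 and 86.4 in 48p-HFSCs, above Ddit3 in both 10p-HFSC libraries and below it in both 48p-HFSC libraries, and its part in the Ddit3 values was not tested.

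None of the 5 targets of the ATF4 and eIF2alpha arm was called by limma, and 1, Asns, had an unadjusted p-value under 0.05. Asns, the asparagine synthetase gene and a standard readout of ATF4, was at 117 and 89.2 in 10p-HFSCs, against 174 and 207 in 48p-HFSCs, without overlap (log2 difference 0.89, standard error 0.31, limma adjusted p = 0.096). Trib3, a pseudokinase gene induced by ATF4 and CHOP, was at 6.56 and 8.83 and then at 5.65 and 14.2, so that its 48p-HFSC replicates lay on either side of both 10p-HFSC values (0.22, standard error 0.45). Chac1, whose product degrades glutathione, was at 9.01 and 15.7 in 10p-HFSCs, against 15.1 and 10.6 in 48p-HFSCs, with groups that overlapped and replicates that crossed (0.08, standard error 0.36). The phosphatase subunits GADD34 (Ppp1r15a) and CReP (Ppp1r15b) reverse the phosphorylation of eIF2alpha, the first when induced by stress and the second in resting cells. Ppp1r15a was at 9.16 and 8.30 against 8.08 and 12.8 (0.21, standard error 0.31), and Ppp1r15b at 29.4 and 27.8 against 19.5 and 20.1, without overlap (-0.51, standard error 0.24, limma adjusted p = 0.18).

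None of the 11 chaperones and co-chaperones was called by limma, 1 (Dnajb9) had an unadjusted p-value under 0.05, and 5 of them were at least 2-fold higher in replicate 2 than in replicate 1 of 48p-HFSCs. Hspa5, which encodes BiP, the main ER chaperone and the protein that keeps the sensors inactive, was at 243 and 185 in 10p-HFSCs, against 259 and 928 in 48p-HFSCs. The 48p-HFSC libraries were both above the 10p-HFSC libraries, yet replicate 1 was close to the nearer of them, and the 48p-HFSC replicates were 3.59-fold apart. The log2 difference was 1.20 (standard error 0.65, limma adjusted p = 0.23). With replicate 1 of 48p-HFSCs left out it was 2.12, a value that rests on replicate 2 alone.
Calr, the lectin chaperone calreticulin, was at 349 and 284 and then at 352 and 815 (0.76, standard error 0.52), a pattern like that of Hspa5. Hsp90b1, the ER form of HSP90 known as GRP94, was at 490 and 340 in 10p-HFSCs, against 302 and 617 in 48p-HFSCs, and its groups overlapped (0.08, standard error 0.51). Canx, the membrane-bound partner of calreticulin, was at 193, 156, 165 and 188 in the same order of libraries (0.02, standard error 0.31). Hspa5, Calr and Canx each hold an ERSE in the windows printed above, and their replicate 2 to replicate 1 ratios in 48p-HFSCs were 3.59, 2.31 and 1.14.

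The small chaperone-associated genes divided in the same manner. Sdf2l1, part of the BiP and co-chaperone complex, was at 19.0 and 21.7 in 10p-HFSCs, against 25.4 and 43.6 in 48p-HFSCs (0.69, standard error 0.33, limma adjusted p = 0.19). Creld2, a stress-induced ER protein with EGF-like domains, was at 24.0 and 25.0 and then at 30.7 and 70.9 (0.91, standard error 0.42, limma adjusted p = 0.17). For both, the 48p-HFSC libraries were above the 10p-HFSC libraries and replicate 2 was the highest value. Manf, a secreted protein of the ER that is released under stress, was at 52.7 and 67.4 and then at 37.1 and 101, with 48p-HFSC values on both sides of the 10p-HFSC values (0.04, standard error 0.49).
Of the J-domain co-chaperones that work with BiP, Dnajb9 (ERdj4) was at 10.1 and 6.90 in 10p-HFSCs, against 5.21 and 3.78 in 48p-HFSCs, without overlap (-0.78, standard error 0.32, limma adjusted p = 0.13). Dnajc3 (p58IPK), an inhibitor of PERK with an ERSE in its printed window, was at 11.2 and 9.86 and then at 8.55 and 7.70, also without overlap (-0.33, standard error 0.26). Dnajb11 (ERdj3) was at 80.4 and 83.5 and then at 54.7 and 86.1 (-0.25, standard error 0.31). Hyou1, a large chaperone that exchanges the nucleotide of BiP, was at 27.1 and 19.0 and then at 16.6 and 22.4 (-0.22, standard error 0.30). All 4 had a lower mean in 48p-HFSCs than in 10p-HFSCs, but none of the differences was called.

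Disulfide isomerases form and rearrange disulfide bonds, and the oxidase ERO1 recharges them. All 5 genes of this group had a log2 difference above 0, though Pdia3 and P4hb turned below 0 under quantile normalization. None was called by limma, and Pdia6 and Ero1l had an unadjusted p-value under 0.05. Pdia6, an isomerase that also attenuates IRE1 signalling, was at 94.9 and 70.8 in 10p-HFSCs, against 126 and 265 in 48p-HFSCs (log2 difference 1.15, standard error 0.43, limma adjusted p = 0.11). Ero1l, the oxidase, was at 17.8 and 15.3 and then at 25.6 and 31.3 (0.74, standard error 0.26, limma adjusted p = 0.096), and its 48p-HFSC replicates were closer together than those of Pdia6. Pdia4 was at 80.0 and 55.6 and then at 95.2 and 102 (0.56, standard error 0.30). For these 3 the groups did not overlap. P4hb, the archetypal isomerase that is also a subunit of prolyl 4-hydroxylase, was at 206, 184, 198 and 276 (0.26, standard error 0.34), and Pdia3, the glycoprotein isomerase that works with calnexin and calreticulin, was at 243, 210, 195 and 292 (0.08, standard error 0.36), both with overlapping groups.

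**Figure D2:**
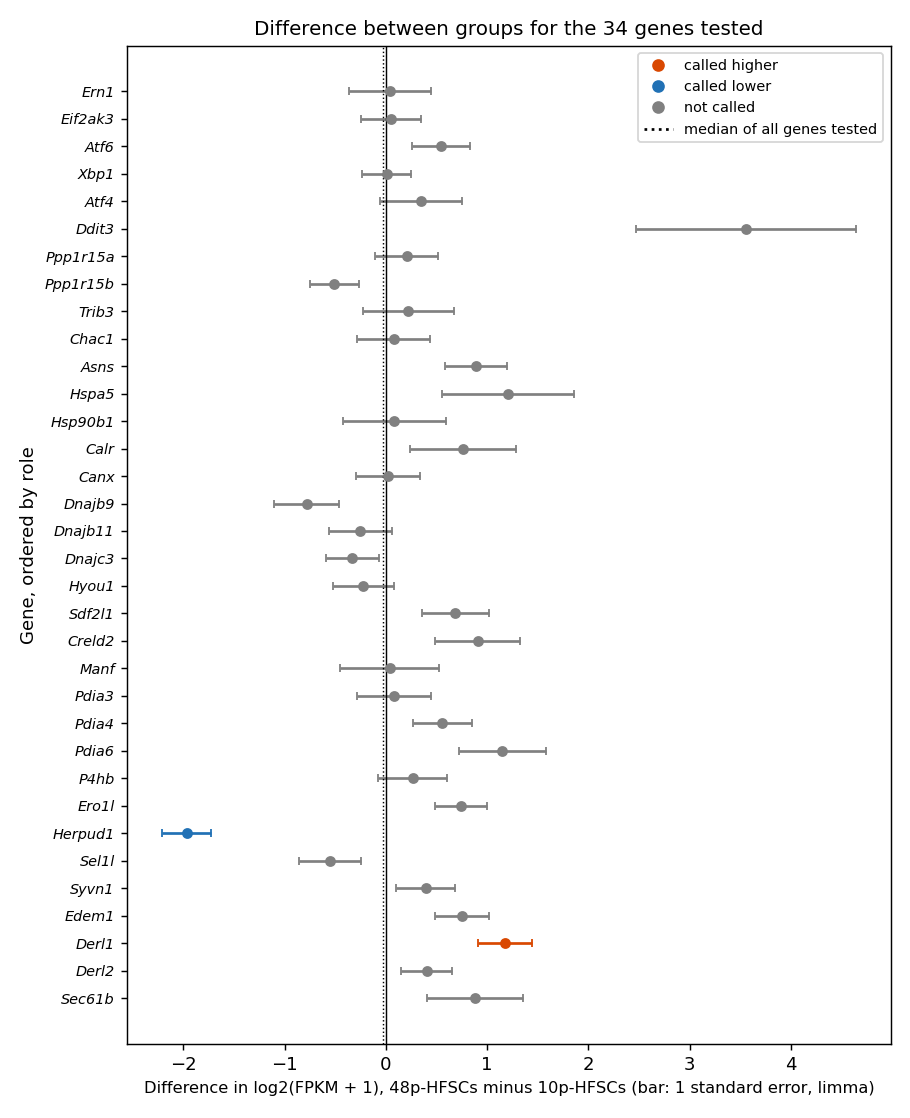
Difference in log2(FPKM + 1) between 48p-HFSCs and 10p-HFSCs for the 34 genes tested, with bars of 1 standard error from limma. Herpud1 at -1.97 and Derl1 at 1.18 are the called genes, Ddit3 at 3.56 has the widest bar, and the dotted line marks the median of all genes tested at -0.03.

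The 48p-HFSC replicates lay apart in many of these genes, and mostly in the same direction. On the log2(FPKM + 1) scale, replicate 2 exceeded replicate 1 by at least 2-fold in 9 of the 34 genes, against 8.69% of all genes tested. They were Ddit3 (3.49 on the log2 scale), Hspa5 (1.84), Manf (1.42), Calr (1.21), Trib3 (1.19), Creld2 (1.18), Sec61b (1.09), Pdia6 (1.06) and Hsp90b1 (1.03). No gene of the list was 2-fold lower in replicate 2, and none was 2-fold apart in either direction in 10p-HFSCs. The summed FPKM of replicates 1 and 2 of 48p-HFSCs was 666018 and 1414953, and the 35 genes made up 0.436% and 0.444% of it. Their share of the sum was thus about the same in both, although the median gene tested differed by only 0.005. The part of the unequal sums in the excess was not tested. The median excess of replicate 2 was 0.37 in 48p-HFSCs and -0.16 in 10p-HFSCs, where 12 of the 34 genes were higher in replicate 2 in place of 28. After correction for length and GC content the 48p-HFSC median was 0.49, beside 0.06 over all genes tested. Short transcripts had the larger excess, with a Pearson's r of -0.53 between the 48p-HFSC replicate difference and log2 length across the 34 genes and -0.38 across all genes tested, a description across genes that share the same pair of libraries. The summed keratinocyte markers, mostly Krt5 and Krt14, were higher in replicate 1 of 48p-HFSCs (12928 against 7940 FPKM). Of the 8 markers tested, 2 were slightly higher in replicate 2, Itgb4 (105 and 109) and Cdh1 (102 and 113). The median replicate difference of the 8 was -0.67, and 3 were at least 2-fold lower in replicate 2. These were Krt15 (425 and 18.8), Trp63 (124 and 52.7) and Sox9 (20.2 and 8.31). The part of these marker shifts in the spread was not tested.

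**Figure D3:**
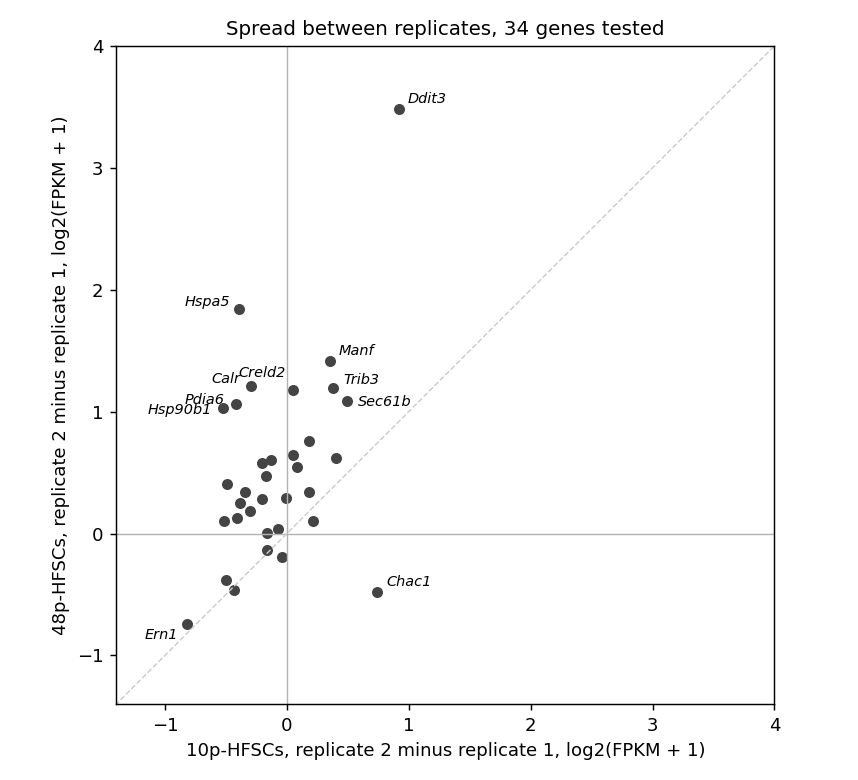
Difference between replicate 2 and replicate 1 in 10p-HFSCs (horizontal axis) and in 48p-HFSCs (vertical axis) on the log2(FPKM + 1) scale, with 1 point for each of the 34 genes tested and a dashed line where both are equal. Most points lie above the line, Ddit3 at 3.49 and Hspa5 at 1.84 on the vertical axis lie farthest up, and Chac1 is below the line.

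Ratios of genes within a library do not depend on the scale of that library, and some pairs are given here that were chosen after their values had been seen. The ratio of Derl1 to Herpud1, 2 ERAD genes, was 0.718 and 0.914 in 10p-HFSCs, against 6.96 and 8.81 in 48p-HFSCs, with the replicates of each group close together. Ddit3 over Atf4, its own activator, was 0.0793 and 0.116 in 10p-HFSCs, against 0.339 and 2.49 in 48p-HFSCs. Hspa5 over Hsp90b1, the main ER chaperones, was 0.496 and 0.544 and then 0.857 and 1.503, and Pdia6 over Pdia3 was 0.391 and 0.336 and then 0.646 and 0.906. In each of these pairs the ratios of 48p-HFSCs exceeded those of 10p-HFSCs, replicate 1 included. A two-sided exact permutation test of 2 against 2 libraries cannot give a p-value under 0.333, and these pairs gave 0.333.

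**Figure D4:**
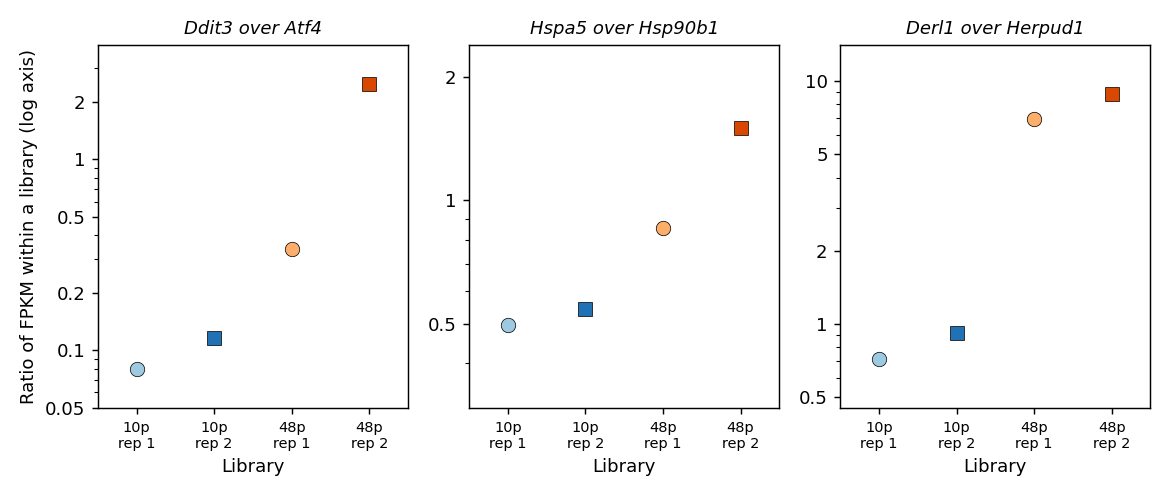
Ratio of the FPKM of 2 genes within each library on a log axis, for Ddit3 over Atf4, Hspa5 over Hsp90b1 and Derl1 over Herpud1, with 1 point per library. The 48p-HFSC libraries are above the 10p-HFSC libraries in all 3 panels, and the replicates of 48p-HFSCs are close for Derl1 over Herpud1 (6.96 and 8.81) and apart for Ddit3 over Atf4 (0.339 and 2.49).

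A wider list of 193 other genes of the pathway was described in the same way. Of these, 178 were tested, 14 were called higher and 10 lower, beside 10.8% and 9.15% of all genes tested, and their median log2 difference was 0.09. The list thus held no larger share of called genes than the whole table, and the called genes are given as values of single genes. Of 35 tested targets of ATF4 and the amino acid response, 4 were called higher and 1 lower. Gdf15, a secreted stress cytokine, was at 0.06 and 0.23 in 10p-HFSCs, against 17.9 and 27.1 in 48p-HFSCs (4.34, limma adjusted p = 0.0011), Ddit4, an inhibitor of mTORC1, at 103 and 96.3 and then at 278 and 281 (1.48), and Cebpg, a bZIP partner of ATF4, and the tRNA synthetase gene Cars were the others called higher. The leucyl-tRNA synthetase gene Lars was called lower (-1.31). Of 9 genes for eIF2alpha kinases and translation, the heme-regulated kinase gene Eif2ak1 was called lower, at 21.5 and 18.8 and then at 9.84 and 4.82 (-1.41, limma adjusted p = 0.045).
Of 17 tested partners of ATF6 and IRE1 and ER-bound factors, 3 were called higher, namely Wfs1, an ER membrane protein that restrains ATF6 (1.92), Tmbim6, which restrains IRE1 (1.25), and the ER-bound factor gene Creb3 (1.19). Nfyc, a subunit of the factor NF-Y that binds the CCAAT part of an ERSE, was called lower, from 29.4 and 38.2 to 12.7 and 12.0 (-1.37, limma adjusted p = 0.019).

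Among 20 tested oxidoreductases and folding enzymes, the peroxiredoxin of the ER Prdx4 was at 51.1 and 49.6 in 10p-HFSCs, against 0 and 0.27 in 48p-HFSCs (-5.51, limma adjusted p = 0.00082), and Tmx1 was also called lower (-1.35). The prolyl isomerase gene Fkbp9 (2.27) and Ero1lb, the paralogue of Ero1l (1.66), were called higher. Of 24 genes for the translocon, signal peptidase and signal recognition, Tram1, a translocating chain-associated membrane protein, was at 12.2 in both 10p-HFSC libraries and at 0.04 and 0 in 48p-HFSCs (-3.69, limma adjusted p = 0.00093). Hspa13 (-1.22) was called lower too, and Spcs1, a signal peptidase subunit, higher (1.43). In the lectin cycle and N-glycosylation, Mogs (-1.15) and Gfpt1 (-1.27) were the called genes of 17 tested, both lower. In ER to Golgi transport 3 of 24 were called higher, Sar1b (2.41), Sec24c (1.75) and Arfgap3 (1.05), and of 8 ER-phagy receptors Calcoco1 was called higher (2.34). Within the lists for folding enzymes and for the translocon, as among the ERAD genes, some genes were thus called higher and others lower. Over all genes tested 10.8% were called higher and 9.15% lower, so calls in both directions do not set these lists apart.

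Chaperones outside the ER were described too. Of 37 tested genes of the cytosolic heat shock and mitochondrial systems, Hspa1a was called higher, from 0.04 and 0 to 1.66 and 1.29, which is near the low-value filter. Its close paralogue Hspa1b was at 3.98 and 4.37 and then at 3.51 and 2.73, and was not called (-0.33). How reads were divided between them was not tested. Hsph1 (-1.08) and Trap1 (-1.17) were called lower, and the median log2 difference over the list was -0.08. Over all genes tested, 19.9% were called. The median excess of replicate 2 over replicate 1 in 48p-HFSCs was 0.49 in these 37 genes, beside 0.37 in the 34 ER stress genes. Of 16 genes of collagen processing, not all of them enzymes or proteins of the ER, 11 were tested. Pcolce was called higher (3.95) and the prolyl 3-hydroxylase gene P3h2 lower (-3.02).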

How the data were processed

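Polyadenylated RNA was read from one end over 101 bp. Per the labels, the authors used TopHat2 2.1.1, Bowtie2 2.2.8, SAMtools 0.1.18 and Cuffdiff 2.2.1 with mm10, and deposited 1 FPKM value per gene symbol and library. The paper's methods give other releases of Bowtie2 and SAMtools, and Cufflinks for the FPKM. The paper names a stranded library kit, but the annotation and the strand setting of the quantification are not given in the sources used here. The study's own test ran on counts, which were not used here.

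The 35 genes and all lists were chosen with earlier results of these data known. Every one of the 35 was named. Of the pathway, chaperone and collagen lists only called genes were named, at most the 4 with the largest difference per direction, with Mars and Hspa1b besides. Groups were taken from the passage number and replicate in the sample titles. Deposited FPKM values were analysed as log2(FPKM + 1) for 11018 genes, those that reached an FPKM of 1 in 2 or more libraries, with limma 3.58.1 in R 4.3.3 (lmFit, eBayes with a variance trend, no replicate block) and Benjamini-Hochberg adjustment over all of them. The script was tested on simulated data. Positions, lengths and GC content came from GENCODE M21 (GRCm38, the assembly of mm10). FPKM carries no read totals, so no counting interval is given, and relative depth came from the most common ratio of low values. Exons of 12 of the 35 genes share bases with another annotated gene. Alternatives were another pseudocount, no low-value filter, other scalings, a constant variance prior, the replicate block, a correction for length and GC content, no fold limit and leaving out each library. The result of 1 gene of these lists is not reported here.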

Additional observations from a re-analysis of the deposited data

How the results depend on the processing

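The 2 groups share replicate numbers, but nothing in the labels ties same-numbered libraries to a common source, and there are only 2 pairs. The deviations of same-numbered libraries had a correlation of 0.408 across genes. With the replicate block, 3 of the 34 genes were called higher (Derl1, Ddit3 with a limma adjusted p of 6.8e-05 and Pdia6 with 0.029), and 1613 genes were called higher and 1497 lower in all, beside 1189 and 1008. The block leaves a single residual degree of freedom per gene, so these p-values rest largely on the variance that limma pools over genes. For Ddit3, replicate 2 exceeded replicate 1 by 0.92 in 10p-HFSCs and by 3.49 in 48p-HFSCs, a spread that this p-value does not reflect.

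Over the 14 settings run, the reported one included, Herpud1 was called lower in 12 and Derl1 higher in 10, Ddit3 in 5, Pdia6 in 3 and Hspa5 in 1. Differences of single genes are given here relative to any shift of the median of all genes, which TPM rescaling (each library to the same sum) moved from -0.03 to -0.56 and other settings by less than 0.1. Without that allowance the median of the 34 genes was -0.32 under TPM rescaling. The direction of all 34 held under a pseudocount of 0.1 and median-of-ratios scaling. A constant variance prior and the replicate block leave the differences themselves unchanged by construction, so they could not turn a direction. The sign turned only in genes that were not called. These were, without the low-value filter, Xbp1 (-0.028) and Canx (-0.016), and under TPM rescaling Xbp1 (-0.036), Canx (-0.040) and Manf (-0.021). Under quantile normalization they were Atf4 (-0.11), Hsp90b1 (-0.43), Canx (-0.34), Manf (-0.19), Pdia3 (-0.35) and P4hb (-0.13). Under the correction for length and GC content, with and without the block, they were Xbp1 (-0.16), Trib3 (-0.013), Chac1 (-0.30) and Manf (-0.050). Why they turned was not tested.

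The number of the 34 genes called higher was 2 under quantile normalization, which added Ddit3, and 2 under length and GC correction, which added Edem1 (limma adjusted p = 0.044), and 4 with that correction and the block. Of the other pathway genes, 3 were called higher under TPM rescaling and 22 with the block, also with length and GC correction, and 5 were called lower without the low-value filter. Of the other chaperone systems, 2 were called higher under median-of-ratios scaling, quantile normalization, the block and length and GC correction, and the number called lower was 5 under TPM rescaling, 7 under quantile normalization and 4 under length and GC correction, with or without the block, and also 4 without the fold limit. Of the collagen processing genes, 2 were called higher with the block and 2 lower under length and GC correction, with or without the block. The cause was not tested.

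With each library left out in turn, which leaves 1 library in a group that is assumed to vary like the other group, the number of the 34 called higher ranged from 0 to 8 and lower from 0 to 1. The 8 came without replicate 1 of 48p-HFSCs. The median of the 34 ranged from 0.11 to 0.60, the other pathway genes called from 0 to 33 higher and from 2 to 14 lower, the other chaperones from 0 to 2 and from 0 to 3, and the collagen enzymes from 0 to 2, with 1 lower each time. The sign turned in 12 genes, none of them called. Their differences ranged from -0.38 to 0.44 for Ern1, -0.13 to 0.22 for Eif2ak3, -0.12 to 0.12 for Xbp1, -0.079 to 0.48 for Ppp1r15a, -0.36 to 0.79 for Trib3, -0.30 to 0.44 for Chac1, -0.41 to 0.56 for Hsp90b1, -0.14 to 0.17 for Canx, -0.56 to 0.038 for Dnajb11, -0.48 to 0.019 for Hyou1, -0.65 to 0.71 for Manf and -0.19 to 0.34 for Pdia3. The shallow replicate 2 of 48p-HFSCs makes low values least precise there.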
